A study of Mus musculus with 2 samples.

Results

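The miR-34 and miR-449 family comprises 6 mouse microRNA genes at 3 loci, Mir34a, Mir34b, Mir34c, Mir449a, Mir449b and Mir449c, out of 2202 microRNA genes in the count tables. They were measured by sequencing of RNA under 30 bases from the heart of female B6CASTF1/J mice, an F1 hybrid, at an age of 14 days. There was 1 group of 2 biological replicates and no treatment or genotype contrast, so the data give levels in the heart at this age and the differences between 2 libraries. The labels mention 3 females for replicate 1 and a single female for replicate 2, without saying if animals were pooled, and a further label gives the unit of age as months. The members were chosen by gene name, and the choice was made with their counts and their differences between the libraries already known. These values are therefore a description, and no p-value is given for them.

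MicroRNAs are cut from hairpin precursors and pair with messenger RNAs mainly through the seed, bases 2 to 8 of the mature strand, so genes with a common seed can repress overlapping sets of targets. Mir34a is a direct transcriptional target of the tumour suppressor p53 and restrains cell division, and in the heart it is known for its rise with age and injury. Mir34b, Mir34c and the Mir449 genes are best known from multiciliated epithelia and the male germ line, where they act in overlapping ways in the formation of motile cilia.

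The mature sequences are shown because the common seed, in capitals, is what unites the family across its loci. They are RNA, written 5′ to 3′, from RefSeq on GRCm38.p6, the same primary sequence as mm10. RefSeq entries were matched for 5 of the 6 genes, with 9 mature strands. No entry was matched for Mir449b.
miR-34a-5p: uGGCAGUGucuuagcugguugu
miR-34b-5p: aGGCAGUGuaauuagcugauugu
miR-449a-5p: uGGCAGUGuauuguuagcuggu
miR-449c-5p: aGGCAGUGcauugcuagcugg

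For Mir34c the table gives the 3p strand, and the hairpin is shown instead for the 5p side, with the letters of the seed in capitals. The 3p strands of Mir34b and Mir34c are added because they have a second seed in common, also in capitals.
Mir34c hairpin: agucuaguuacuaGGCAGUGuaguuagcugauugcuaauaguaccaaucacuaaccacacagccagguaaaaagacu
miR-34b-3p: aAUCACUAacuccacugccauc
miR-34c-3p: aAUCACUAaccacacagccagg

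Of 1738 mature mouse sequences in the RefSeq table, the 4 printed 5p strands alone had the seed GGCAGUG at bases 2 to 8, which is 0.230%, and 0 had these letters 1 base earlier or later. The same letters occurred anywhere in 17 of 1005 hairpins (1.69%). The 3p seed AUCACUA was found at bases 2 to 8 in 2 mature sequences, those of Mir34b and Mir34c. The 3p strands of Mir34a, Mir449a and Mir449c each had a seed that no other mature sequence in the table had.

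Outside the seed the mature strands differed from one another. Placed without gaps on the Mir34c hairpin, miR-34b-5p matched at 21 of 23 bases, with the substitutions A11G and U23C, where positions are counted from 1 at the 5′ end of miR-34b-5p and the hairpin's base comes last. miR-449a-5p matched the Mir449c hairpin at 18 of 22 bases and the Mir34a hairpin at 15 of 22. The longest stretch that any 2 of the 6 hairpins had in common was 11 bases, and none of them had 20 bases in common with any other annotated microRNA hairpin. Sequence outside the annotated hairpins was not searched for copies. Counts are per hairpin gene, so the 5p and 3p strands cannot be told apart in the values that follow.

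Each locus has its own setting on mm10 in GENCODE M21. Mir34a (ENSMUSG00000065493.1) lies on the plus strand of chromosome 4, from 150068454 to 150068555, outside any protein-coding gene. An exon of Gm37795, a gene model of the annotation's TEC class, overlaps 17 of its bases on the same strand, and the nearest coding gene is Gpr157 at a distance of 18.8 kb. Mir34b (ENSMUSG00000065492.1, 51103562 to 51103645) and Mir34c (ENSMUSG00000065587.1, 51103034 to 51103110) lie on the minus strand of chromosome 9, 451 bases apart, within an intron of Btg4, which is transcribed from the opposite strand. Mir449c (ENSMUSG00000076146.1, 113035983 to 113036091), Mir449b (ENSMUSG00000078027.1, 113037419 to 113037498) and Mir449a (ENSMUSG00000065575.1, 113037534 to 113037624) lie on the plus strand of chromosome 13, within an intron of Cdc20b and on its strand. Mir449b and Mir449a are separated by 35 bases, and Mir449c lies 1327 bases before Mir449b.

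**Figure D1:**
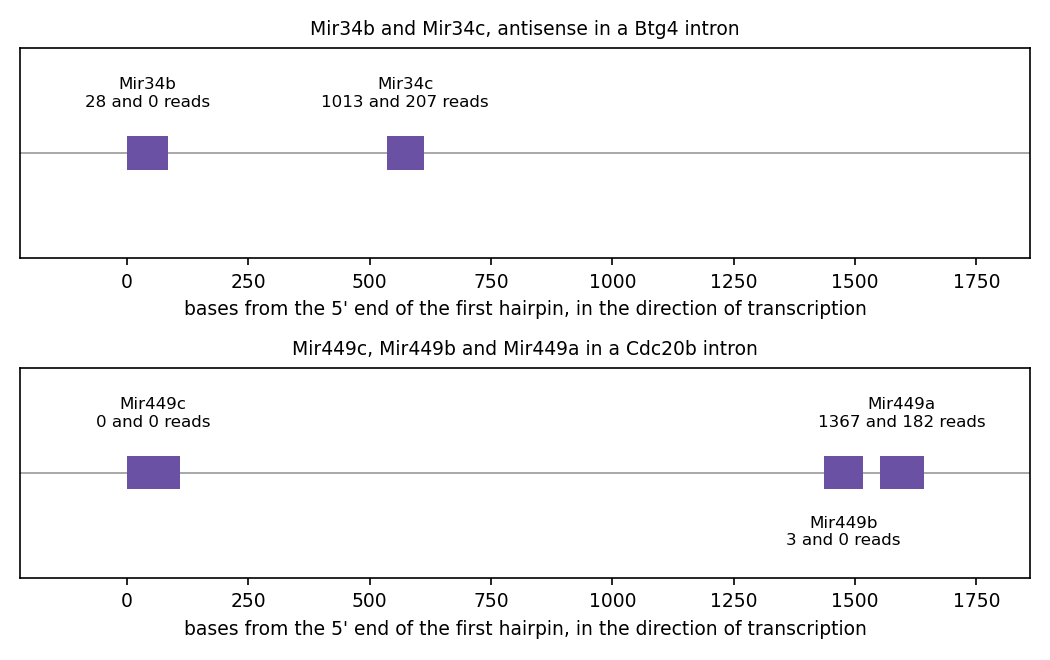
Map of the clustered hairpins at the Btg4 and Cdc20b loci. The horizontal axis gives bases from the 5′ end of the first hairpin in the direction of transcription, boxes are hairpins drawn to scale, and the numbers are reads in replicate 1 and replicate 2. Within each cluster nearly all reads came from the hairpin farthest downstream, Mir34c (1013 and 207 reads) and Mir449a (1367 and 182 reads).

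The tables held 5237062 own-strand reads on microRNA genes for replicate 1 and 3026501 for replicate 2, and levels are given as counts per 1000000 of these reads (CPM). The limit that a count of 0 allows is 3 reads, which is 0.573 CPM for the deeper library and 0.991 CPM for the other. Intervals are exact 95% Clopper-Pearson intervals. The reads carry no molecular identifiers and may repeat one molecule, so intervals and limits cover counting error only. An SD over 2 replicates holds no more than their one difference. A microRNA read covers most of its mature strand, so levels were not divided by hairpin length, which ran from 77 to 109 bases.

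Mir34a held most of the family's reads in both libraries. Mir34a had 17010 reads in replicate 1, or 3248 CPM (interval 3199 to 3297), and 12987 reads in replicate 2, or 4291 CPM (4218 to 4365). Its mean was 3770 ± 738 CPM (SD, n = 2), which placed it at rank 31 of all microRNA genes by mean level. Reads that mapped to several places, 41.1% and 39.9% of all reads, are in no gene's count. The rank therefore holds among singly mapped reads only. The 6 genes summed to 19421 and 13376 reads, or 3708 and 4420 CPM, with a mean of 4064 ± 503 CPM (SD, n = 2). These sums were 0.371% and 0.442% of the counted microRNA reads.

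Mir449a and Mir34c followed at a level more than 10 times below that of Mir34a in each library. Mir449a had 1367 reads in replicate 1, or 261 CPM (247 to 275), and 182 reads in replicate 2, or 60.1 CPM (51.7 to 69.5). Mir34c had 1013 reads in replicate 1, or 193 CPM (182 to 206), and 207 reads in replicate 2, or 68.4 CPM (59.4 to 78.4). Both genes were higher in replicate 1. The counting intervals of the libraries did not overlap for either gene, and those of Mir34a did not overlap either. The share of all microRNA genes with intervals apart was not computed. The means were 161 ± 142 CPM for Mir449a and 131 ± 88.4 CPM for Mir34c (SD, n = 2). The pair had a different ratio in each library, and their order was resolved in replicate 1 alone. The ratio of Mir449a to Mir34c was 1.35 in replicate 1, with an interval of 1.24 to 1.47, and 0.879 in replicate 2, with an interval of 0.716 to 1.08 that includes equality.

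The other genes had few reads or none. Mir34b had 28 reads in replicate 1, or 5.35 CPM (3.55 to 7.73), and 0 in replicate 2. Mir449b had 3 reads in replicate 1 and 0 in replicate 2, at the limit of detection in both. Mir449c had 0 reads in both libraries. At least 10 reads in both libraries were thus reached by 3 of the 6 genes, against 335 of 2202 over all microRNA genes.

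**Figure D2:**
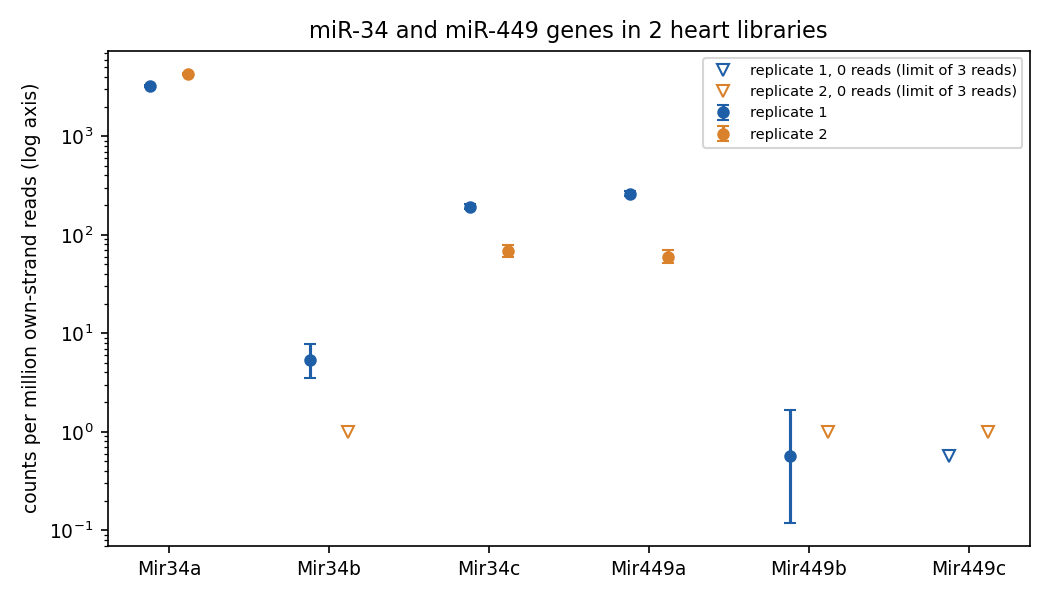
Level of each of the 6 genes in each library, in CPM on a log axis. Points are single libraries, bars are exact 95% counting intervals, and open triangles mark 0 reads at the level of 3 reads. Mir34a stood at 3248 and 4291 CPM, Mir449a and Mir34c between 60.1 and 261 CPM, and Mir34b, Mir449b and Mir449c at 5.35 CPM or below.

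Reads on the opposite strand played no part in these values. For all 6 genes the own-strand and unstranded counts were equal and the opposite-strand count was 0 in both libraries. Over the 335 genes with at least 10 reads in both libraries, own-strand and unstranded counts were equal for 88.7% and no opposite-strand read was seen for 93.7%.

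The libraries differed in the make-up of the family, a comparison that does not depend on how library sizes are scaled. Of the family's reads, Mir34a made up 87.6% in replicate 1 (87.1 to 88.0) against 97.1% in replicate 2 (96.8 to 97.4). Mir449a made up 7.04% (6.68 to 7.41) against 1.36% (1.17 to 1.57). Mir34c made up 5.22% (4.91 to 5.54) against 1.55% (1.35 to 1.77). The 5 genes other than Mir34a together held 12.4% (12.0 to 12.9) in replicate 1 and 2.91% (2.63 to 3.21) in replicate 2. There were thus 16.8 reads of Mir34a for each read of Mir34c in replicate 1 and 62.7 in replicate 2.

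**Figure D3:**
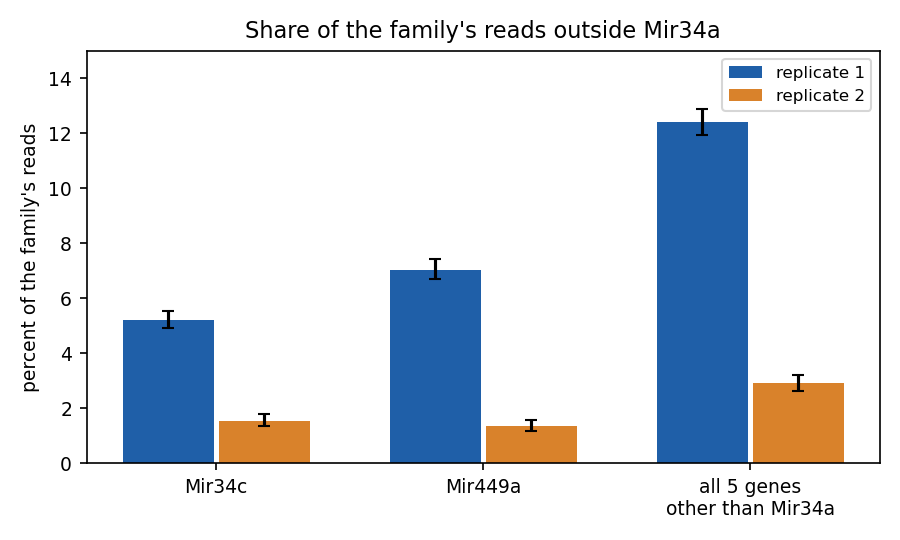
Share of the family's reads that came from Mir34c, from Mir449a and from the 5 genes other than Mir34a together, in percent, for each library. Bars are single libraries and error bars are exact 95% counting intervals. Each share was larger in replicate 1, at 12.4% against 2.91% for the 5 genes together.

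Scaled to all counted microRNA reads, Mir34a and the clustered members lay on opposite sides of equality. Mir34a was 1.32-fold higher in replicate 2 (log2 difference, replicate 1 minus replicate 2, of -0.40, counting interval -0.43 to -0.37). Mir34c was 2.82-fold higher in replicate 1 (log2 1.50, 1.28 to 1.72) and Mir449a was 4.33-fold higher in replicate 1 (log2 2.11, 1.89 to 2.35). Mir34b was 5.39-fold higher in replicate 1 when its 5.35 CPM are set against the limit of 3 reads in replicate 2. The exact interval of its fold between the libraries had a lower end of 4.10. Its level in replicate 1 would correspond to 16.2 reads in replicate 2. No fold is given for Mir449b and Mir449c, which were at or under the limit of 3 reads in both libraries.

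Of the 3 members with at least 10 reads in both libraries, 2 were more than 2-fold higher in replicate 1 (Mir34c and Mir449a), against 13.1% of all 335 such genes, and 0 were more than 2-fold lower, against 6.57%. With a minimum of 10 reads in sum Mir34b was added as a further higher gene, but it met that minimum through replicate 1 alone and so had to differ. Over all 430 genes with at least 10 reads in sum, 17.2% were more than 2-fold higher in replicate 1 and 10% more than 2-fold lower. Among the 263 genes with at least 100 reads in sum, which include Mir34a, Mir34c and Mir449a, these shares were 13.3% and 5.7%. In that set 7 genes were raised further in replicate 1 than Mir449a and 20 further than Mir34c. The 1.32-fold difference of Mir34a was close to the median difference of that set in either direction, 1.35-fold. These differences belonged to the values known when the genes were chosen and are given without a test. TMM scaling shifted every log2 difference by -0.13, which left Mir34c and Mir449a more than 2-fold higher and put Mir34a at -0.54. Mir34b also stayed more than 2-fold higher, but with 0 reads in replicate 2 its value rests on the reads added.

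**Figure D4:**
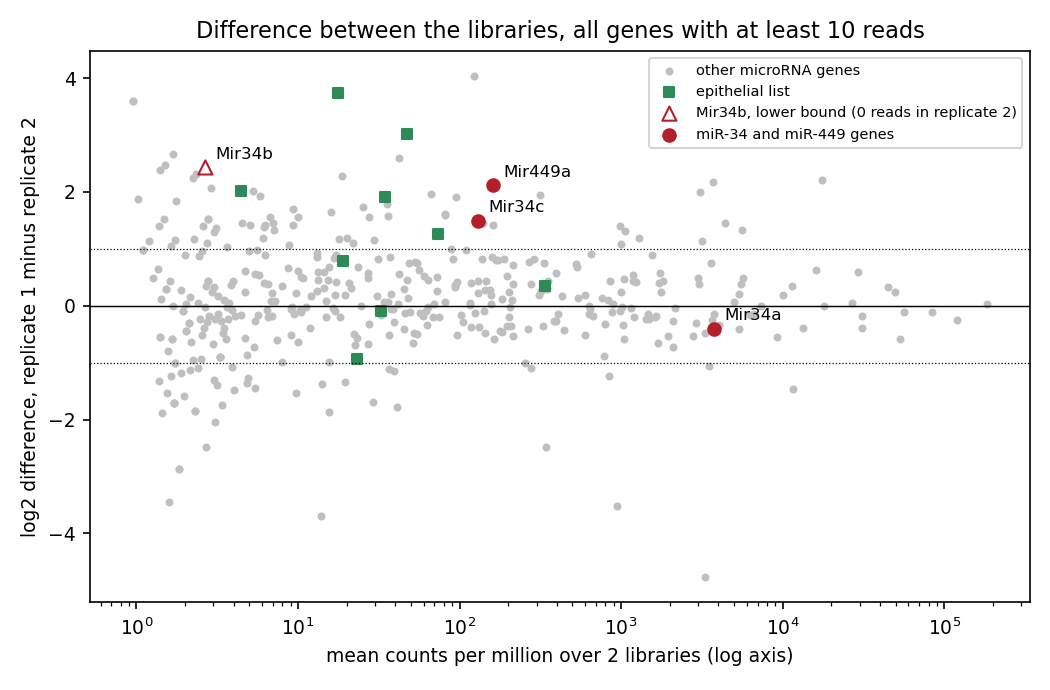
Log2 difference between the libraries against mean level on a log axis for the 430 genes with at least 10 reads in sum. Points are genes, with 0.5 reads added to each count, and dotted lines mark a 2-fold difference. Mir34b is drawn at log2 2.43, its level set against 3 reads in replicate 2, while the lower end of its exact interval was 2.04. Squares mark the epithelial list, whose genes lie on both sides of 0. Mir449a (log2 2.11) and Mir34c (log2 1.50) lie above the upper dotted line, and Mir34a (log2 -0.40) lies between the dotted lines.

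Within each cluster the hairpins were counted very unequally. In replicate 1 there were 36.2 reads of Mir34c for each read of Mir34b (24.9 to 54.7). In replicate 2 the 207 reads of Mir34c faced none of Mir34b. Set against the limit of 3 reads the ratio was 69, and the lower end of its exact interval was 55.6. Because miR-34b-5p matches the Mir34c hairpin at 21 of 23 bases, reads of one gene might be counted for the other, which was not tested. The ratio of Mir449a to Mir449b was 456 in replicate 1 (156 to 2212). In replicate 2 it was 60.7 against the limit of 3 reads, with an exact lower end of 48.8. Both pairs were more unequal than the median pair of neighbouring microRNA genes in each library. Over 83 pairs of neighbours on the same strand within 10000 bases, at least 1 gene of each having 10 reads in both libraries and neither sharing 20 bases with another hairpin, the median ratio in replicate 1 was 3.64 on the log2 scale, without regard to sign and with 0.5 reads added to each count, with quartiles at 1.58 and 5.19. In that library Mir34c and Mir34b stood at 5.15, with 22 pairs more unequal, and Mir449a and Mir449b at 8.61, with 8 pairs more unequal. In replicate 2 the median was 3.90, and the same pairs stood at 8.70, with 9 pairs more unequal, and at 8.51, with 12 more unequal, though both values rest on a count of 0 and on the reads added.

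The genes nearest to each member over the 2 libraries were found by the Euclidean distance of log2(CPM + 1), which rests on only 2 values per gene. For Mir34a they were Mir30e (distance 0.123), Mir127 (0.161) and Mir130a (0.188), all between 3335 and 4517 CPM. For Mir34c they were Mir299a (0.135), Mir24-2 (0.422) and Mir128-1 (0.442). For Mir449a they were Mir299a (0.462), Mir34c (0.468) and Mir128-1 (0.552). The counts of Mir24-2 and Mir128-1 are uncertain, since they have 20 bases in common with Mir24-1 and Mir128-2. Mir34c was thus the second nearest of all genes to Mir449a, after Mir299a. The levels of both members were known when the family was chosen, so this nearness is a description only.

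MicroRNAs other than the family that have been linked to p53 did not share one direction. Of the 11 such genes, all with at least 10 reads in both libraries, 1 was more than 2-fold higher in replicate 1 and 1 more than 2-fold lower, against 13.1% and 6.57% of all such genes. Their median log2 difference was -0.03, against 0.08 over the 430 genes with at least 10 reads in sum. That set is wider, since it also holds genes with fewer than 10 reads in a library. With TMM scaling 2 of the 11 genes were more than 2-fold lower, as Mir16-1 joined Mir107. Over the 430 genes the number more than 2-fold lower rose from 43 to 55 with that scaling. The p53-linked gene more than 2-fold higher was Mir192, a p53-induced microRNA of gut and kidney, with 71 and 15 reads (log2 1.41, 0.63 to 2.36). The lower gene was Mir107, with 2293 and 4753 CPM (log2 -1.05, -1.09 to -1.02), which has 20 bases in common with Mir103-1 and Mir103-2 and is therefore uncertain. Mir143 and Mir145a, which p53 is known to help process, stood at 29124 and 33002 CPM and at 1209 and 877 CPM. Mir15a (850 and 916 CPM) and Mir16-1 (550 and 1011 CPM) act against the cell cycle, and Mir16-1 has 20 bases in common with Mir16-2. Mir194-1 (11.1 and 11.2 CPM) and Mir215 (38.8 and 51.5 CPM) are neighbours 195 bases apart. Mir194-2 (12.4 and 8.59 CPM) and Mir192 are neighbours 115 bases apart. Mir194-1 and Mir194-2 have 20 bases in common with each other. Mir200c (379 and 297 CPM) and Mir141 (24.1 and 13.9 CPM) are also epithelial genes.

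Part of the epithelial list was higher in the same library as Mir34c and Mir449a. At least 10 reads in both libraries were reached by 7 of its 10 genes. Of these, 3 were more than 2-fold higher in replicate 1 (Mir200b, Mir429 and Mir203), against 13.1% of all such genes, and 0 more than 2-fold lower. Of these 7 genes 5 lay above 0 and 2 below it, Mir182 (15.8 and 30.4 CPM, log2 -0.94) and Mir183 (31.5 and 33.4 CPM, log2 -0.09). Mir182 was more than 2-fold lower with TMM scaling, as were 55 of the 430 genes with at least 10 reads in sum. Mir200a (38 and 5 reads) and Mir205 (172 and 7 reads), a marker of stratified epithelium, were also higher, but met a minimum of 10 reads through replicate 1 alone. The list's summed level was 734 CPM in replicate 1 against 446 CPM in replicate 2. No gene of it was at 0 in both libraries, and Mir96 had 4 and 0 reads. Its highest members were Mir200c (379 and 297 CPM), Mir203 (104 and 43.0 CPM) and Mir200b (84.2 and 10.2 CPM). The testis cluster on the X chromosome held 9 and 2 reads over 11 genes, with Mir471, Mir463, Mir880, Mir881 and Mir883a at 0 in both libraries. Mir742, Mir743 and, level with each other, Mir878 and Mir883b were its highest by mean level and had at most 3 reads in either library. Whether epithelial RNA had a part in the values of Mir34c and Mir449a was not tested. In bulk tissue, more cells of a type and more RNA per cell cannot be told apart.

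Markers of the heart's own cells were present in both libraries. In counts that leave out reads mapped to several places, the cardiomyocyte list summed to 5194 and 3456 CPM. It was led by Mir499 (3482 and 2486 CPM), Mir208a (1356 and 641 CPM) and Mir208b (329 and 288 CPM), which lie in myosin genes. Its genes did not share one direction, since of the 5 with at least 10 reads in both libraries 3 were higher in replicate 1 and 2 lower, Mir1a-2 (log2 -0.67) and Mir133a-1 (log2 -0.39), whose counts are uncertain because each has 20 bases in common with other hairpins. Of these 5 genes 1 was more than 2-fold higher, Mir208a, against 13.1% of all genes with at least 10 reads in both libraries. With TMM scaling Mir208a was not. The endothelial Mir126a stood at 42911 and 63991 CPM, and the smooth muscle list of Mir143 and Mir145a at 30333 and 33879 CPM. The leukocyte list stood at 3855 and 4154 CPM, led by Mir155 (1591 and 2619 CPM), Mir146 (1366 and 1012 CPM) and Mir150 (659 and 395 CPM). The count of Mir146 is uncertain, since it has 20 bases in common with Mir146b. Of the list's 5 genes 4 were higher in replicate 1 and 1, Mir155, was lower. Among them 1 was more than 2-fold higher in replicate 1, Mir223 (106 and 27.1 CPM), against 13.1% of all genes with at least 10 reads in both libraries. The erythroid Mir451a and Mir144 summed to 337 and 6972 CPM. They were higher in replicate 2, as were Mir34a and in all 197 of the 430 genes with at least 10 reads in sum. Their log2 differences, -4.77 and -2.49, were far larger in size than the -0.40 of Mir34a. Mir486, an erythroid and muscle microRNA outside that list, went the other way, with 658 and 410 CPM on its own strand, where it overlaps Mir3107 of the opposite strand. Whether blood had a part in the value of Mir34a was not tested.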

How the data were processed

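MicroRNA libraries from the heart of 2 biological replicates were used. The authors deposited whole-number read counts per microRNA gene, not normalized, for each library, on mm10 with GENCODE M21 per the deposited readme. For the aligner, the counter and trimming, names and settings were not given in the sources used here. Count columns, of which there are 3, have no header and were read, from their values, as unstranded, own-strand and opposite-strand counts, and the own-strand counts were used. The first 4 lines name no gene and were left out. Of all 12701590 and 7126319 reads, 41.1% and 39.9% mapped to several places and were counted for no gene, 13.4% and 13.3% were unmapped, and 4.33% and 4.30% lay outside microRNA genes. All 2202 gene IDs matched GENCODE M21.

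Counts were scaled to 1000000 own-strand reads (CPM). For log2 differences 0.5 reads were added per count, with intervals from the exact 95% binomial interval of replicate 1's share. They compare 2 libraries, not conditions, and past 2-fold is a size and not a test. No model was fitted and no p-value computed. The calculation was checked on simulated data. Hairpin stretches came from GENCODE transcripts and mature sequences from RefSeq.

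The members and gene lists were chosen with earlier results of these data known. Named were the 6 members, detected p53-linked genes, the 3 highest genes of each marker list (epithelial, testis X cluster, cardiomyocyte, endothelial, smooth muscle, leukocyte, erythroid), the 3 genes nearest to each member with 10 reads in both libraries, and genes with the members' seed. Mir205, Mir200a, Mir429, Mir96, Mir182, Mir183, Mir223, Mir1a-2, Mir133a-1, Mir486, the testis genes at 0 and the comparison of neighbouring genes were chosen after their values were seen. Alternatives were unstranded counts, reads of all kinds as denominator, each replicate alone, edgeR 4.0.16 TMM factors, DESeq2 1.42.0 size factors, 5 reads added and other read minimums. Python 3.11.15, pandas 2.3.3, numpy 2.4.6, scipy 1.17.1, matplotlib 3.10.9 and R 4.3.3 were used.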

Additional observations from a re-analysis of the deposited data

How the results depend on the processing

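The level of the family depended on its denominator. It was 5567 CPM with unstranded reads and 1703 CPM over reads of all kinds, against 4064 CPM, and ranged from 3708 to 4420 CPM when either replicate was left out. Its log2 difference between the libraries kept its sign, at -0.39 with TMM factors, -0.35 with DESeq2 size factors and -0.29 with unstranded reads, against -0.25. Mir34c and Mir449a remained more than 2-fold higher in replicate 1 under all 4 alternatives, with log2 differences of 1.36 to 1.47 and 1.98 to 2.08. The 5 members other than Mir34a, summed after seeing the data, were higher by 1.84, and by 1.70 to 1.83 under 3 alternatives. For Mir34b, with 0 reads in replicate 2, the log2 difference was 1.93 with 5 reads added and depends on the number added. The number of members with enough reads in both libraries was 3 at minimums of 1, 5, 10 and 20 reads. Over all genes, those more than 2-fold higher and lower in replicate 1 numbered 74 and 43. They numbered 68 and 55 with TMM factors, 70 and 50 with DESeq2 size factors, and 50 and 42 with 5 reads added. Among genes with at least 100 reads in sum they numbered 35 and 15. Among genes with at least 10 reads in both libraries (a minimum added after seeing the data) they numbered 44 and 22, and with at least 1 read 171 and 121. The last 3 pairs of counts come from other numbers of genes, and the shares changed too where they were computed. Higher and lower genes made up 17.2% and 10% of the 430 genes of the main setting. They made up 13.3% and 5.7% of the 263 genes at the minimum of 100 reads. Of the 335 genes that met the minimum in each library they made up 13.1% and 6.57%. No share is given for the minimum of 1 read. No paired analysis was possible because there was a single group. Depth limits what can be said of Mir34b, Mir449b and Mir449c, and 2 libraries limit every SD.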
